A study of Mus musculus with 27 samples.

Results

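The comparison described here sets the cortex of the occluded hemisphere 3 and 6 h after a transient stroke against the cortex of sham-operated mice, over every mature miRNA entry of the count table. It uses 6 ipsilateral libraries, 3 from each time, and 3 sham libraries, of 27 libraries in the series. The libraries were picked by their labels, but the comparison was chosen with earlier results of these data known. All mice were wild-type C57BL6, an inbred laboratory strain, aged 7 to 8 weeks. Middle cerebral artery occlusion (MCAO) was made with a nylon suture passed through the right external carotid artery and lasted 35 min, after which blood flow was restored and the mice recovered for the stated time. Sham mice had anesthesia and exposed arteries but no filament, and the labels give them no recovery time. The other groups used below, also of 3 libraries each, are ipsilateral cortex at 12 and 24 h and contralateral cortex, from the hemisphere opposite the occlusion, at 3 and 6 h. Each replicate number stands for a different day of surgery. The labels do not say whether ipsilateral and contralateral cortex of 1 number came from 1 animal.

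MiRNAs are short RNAs that guide Argonaute proteins to messenger RNAs, mainly through the seed at bases 2 to 8, and lower their translation and stability. One or both arms of a hairpin precursor can give a mature miRNA, named 5p or 3p. Ischemia and reperfusion bring energy failure, excess glutamate, oxidative stress and then inflammation, and miRNAs of neurons, glia, vessels and blood are all present in RNA from whole cortex.

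The mature sequences of the leading entries show which of them could share targets or reads. The seed is in capitals. The sequences are RefSeq's on build GRCm38.p6, in which 1290 of the 1470 tested entries have a mature sequence. Shown are the entries with the smallest p for a higher level in early ipsilateral cortex than in sham, where the table holds a mature sequence, and miR-8109, added because it was called against contralateral cortex.
miR-7687-3p: cCACUCAGucgccccgccaca
miR-6968-5p: aGGGGGCGagggggcccugugg
miR-1934-5p: uCUGGUCCccugcuucguccucu
miR-7009-3p: uCUUUUCCccucucccugcag
miR-2861: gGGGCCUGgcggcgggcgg
miR-701-5p: uUAGCCGCugaaauagaugga
miR-6538: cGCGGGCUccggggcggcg
miR-3058-3p: uUCCUGUCagccgugggugcc
miR-8109: gCGCCGCGugccggccgcggg

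These 9 entries have 9 different seeds. Among the 1290 tested entries with a mature sequence, only miR-2861, with miR-3091-3p, and miR-3058-3p, with miR-7681-5p, share theirs with another entry. The other tested entries could not be compared. The remaining leading entries are miR-5099, miR-3960, miR-467d-5p and miR-1893. For miR-5099, which had the smallest p of all, the table gives the hairpin of 74 bases, at chr12:36816205-36816278 on the plus strand, where no other gene is annotated.
miR-5099 hairpin: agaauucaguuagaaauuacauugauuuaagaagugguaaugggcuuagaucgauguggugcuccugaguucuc

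On GRCm38.p6 many of the hairpins lie inside other genes, on the same strand. Mir7687 is in an intron of Gse1 (chr8:120538696-120538754, plus strand). Mir6968 is in an intron of Phf1 and opposite an exon of Cuta (chr17:26935472-26935539, plus). Mir7009 is in an intron of Anxa5 (chr3:36475461-36475524, minus) and Mir701 in an intron of Ttc28 (chr5:111004144-111004252, plus). Mir6538 is in an intron of Rnf144a (chr12:26414901-26415010, minus) and Mir3058 in an intron of Nudt4 (chr10:95559231-95559321, minus). Mir2861 (chr2:32712807-32712888, minus) and Mir3960 (chr2:32712900-32712972, minus) are neighbours within an untranslated exon of Cdk9, which encodes a kinase of transcription elongation. Mir8109 (chr8:85700905-85701021, plus) lies opposite an untranslated exon of Neto2, and Mir1934 (chr11:69663043-69663125, plus) overlaps no other gene. The sources used here do not name the build behind the deposited counts.

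The 9 libraries held 861339 to 1429182 counts, with a median of 11 to 21 counts per entry, so single entries of low level are imprecise. Sham replicate 2 and ipsilateral 6 h replicate 3 stood apart from the other 7 libraries. In them miR-182-5p took 1.89% (95% Wilson interval 1.87% to 1.91%) and 2.09% (2.06% to 2.11%) of all counts. Since 1 of these libraries is in each arm, results are given with and without both. Levels are in CPM, computed on library totals multiplied by TMM factors, which offset differences in composition.

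The question of the main comparison is which miRNAs differ from sham within the first hours after occlusion. No entry passed the edgeR quasi-likelihood test with Benjamini-Hochberg adjustment over 1470 entries, in either direction (0% called higher and 0% called lower). The smallest adjusted p was 0.166, shared by 5 entries, and 81 entries had an unadjusted p under 0.05, of which 59 were higher and 22 lower than in sham. DESeq2 called 16 entries, 15 higher and 1 lower, and gave no adjusted p for 915 entries. These 16 include the 13 entries described as higher below, together with miR-5131, miR-7082-5p and, as the lower one, miR-7228-5p. With the day of surgery as a replicate block, edgeR called 1 entry, miR-5099 (adjusted p 0.0168, 0.068% of entries called higher). Fitted to only these 9 libraries it called 1, miR-7687-3p (adjusted p 0.00447), and with the block in that fit it called 14, of which 13 were higher and 8 are among the 13 entries described below. This last fit was chosen after seeing the data. Without ipsilateral 6 h replicate 3, edgeR called 6 entries: miR-5099 was higher (log2 1.34, adjusted p 0.0271), and 5 entries of the miR-183 and miR-200 clusters were lower. With both high-miR-182-5p libraries left out it called 0, and the smallest adjusted p was 0.998.

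**Figure D1:**
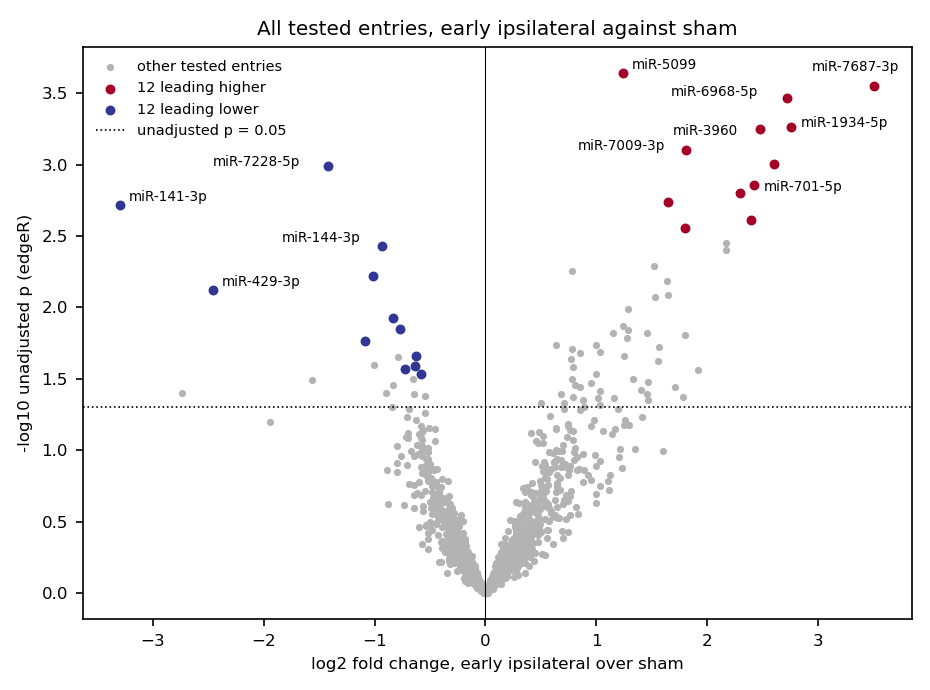
Log2 fold change of early ipsilateral cortex over sham (x axis) against -log10 of the unadjusted edgeR p (y axis) for the 1470 tested entries. The 12 leading higher entries (red) reach a log2 fold change of 3.51 and the 12 leading lower entries (blue) -3.30, and none passed the adjusted threshold.

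The entries named next are the 12 in each direction with the smallest p and a mean of at least 10 CPM. The higher ones are given as values, since none was called. MiR-5099 stood at 307, 292 and 245 CPM in the 3 sham libraries, at 489, 633 and 599 CPM at 3 h, and at 1059, 713 and 553 CPM at 6 h. Every early library was thus above every sham library, with means of 281 ± 32.1 in sham, 574 ± 75.3 at 3 h and 775 ± 259 CPM at 6 h (SD, n = 3 each). On the log2 scale this was 1.24 ± 0.29 (fold change ± SE), and edgeR's adjusted p was 0.166.

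The entry with the highest ratio to sham was miR-7687-3p. It stood at 11.3, 10.5 and 8.08 CPM in sham, 164, 143 and 126 CPM at 3 h, and 45.8, 61.1 and 168 CPM at 6 h. The groups did not overlap, and the log2 fold change was 3.51 ± 0.83 (adjusted p 0.166 by edgeR). For the opposite arm of the hairpin, miR-7687-5p, the log2 value was 0.27 ± 0.48. MiR-6968-5p was at 9.73, 14 and 12.1 CPM in sham, 129, 41.8 and 82.0 CPM at 3 h, and 24.9, 57.7 and 141 CPM at 6 h (log2 2.72 ± 0.66). The libraries overlapped for the opposite arm, miR-6968-3p (log2 -0.58 ± 0.76). The difference between the arms was not tested.

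The pair within the Cdk9 exon had similar fold changes at different levels. MiR-3960 was at 92.4, 54.2 and 64.7 CPM in sham, 528, 265 and 640 CPM at 3 h, and 138, 247 and 581 CPM at 6 h (log2 2.48 ± 0.63). MiR-2861 was at 11.3, 6.12 and 22.2 CPM in sham, 143, 41.8 and 135 CPM at 3 h, and 25.9, 49.9 and 105 CPM at 6 h (log2 2.60 ± 0.70). For both, the lowest early library was 6 h replicate 1, and it was still above the highest sham library.

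MiR-1934-5p was at 44.6, 33.2 and 35.4 CPM in sham, 662, 116 and 281 CPM at 3 h, and 67.7, 166 and 320 CPM at 6 h (log2 2.75 ± 0.70). Its early libraries spread widely, with 3 h replicate 1 the highest, and none reached down to sham. MiR-7009-3p, from the Anxa5 intron, was at 21.9, 14.9 and 17.2 CPM in sham, 196, 44.2 and 89.6 CPM at 3 h, and 23.9, 39.6 and 44.8 CPM at 6 h (log2 1.81 ± 0.47). MiR-701-5p was at 13.0, 19.2 and 22.2 CPM in sham, 47.6, 66.3 and 54.0 CPM at 3 h, and 62.7, 114 and 328 CPM at 6 h (log2 2.42 ± 0.67). Its highest library was 6 h replicate 3, as for miR-7687-3p and miR-6968-5p.

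MiR-6538 ranged from 15.7 to 35.7 CPM in sham and from 41.8 to 227 CPM in early ipsilateral cortex (log2 2.30 ± 0.65). MiR-1893 ranged from 20.1 to 34.9 and from 38.8 to 306 CPM (log2 2.40 ± 0.71). MiR-467d-5p, of the large Sfmbt2 intronic cluster, ranged from 18.6 to 27.3 and from 54.4 to 114 CPM (log2 1.80 ± 0.54). MiR-3058-3p was the only one of the 12 whose groups overlapped, by the sham library at 22.7 CPM and the early library at 21.9 CPM (log2 1.65 ± 0.47). Its opposite arm, miR-3058-5p, had a log2 fold change of -0.19 ± 0.39.

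Of these 12, 11 did not overlap with sham, where 35 of all tested entries (2.38%) did not overlap on the higher side. The entries were picked for small p, so this count only describes them. Within each day of surgery all 12 were above sham on all 3 days, by log2 1.06 to 3.89 with 2 CPM added. For the 11 without overlap this direction follows from the separation of the groups, so it is no further evidence. Summed, they made up 430 to 684 CPM of the library total in sham, 1422 to 4405 at 3 h and 1599 to 2933 at 6 h. The highest sum was in 3 h replicate 1, which also had the largest TMM factor of the 9 libraries, 1.51. The part of the factor in the result was not tested beyond the alternative scalings. Without the 2 libraries of high miR-182-5p the 12 fold changes were 1.25 to 3.16 on the log2 scale, with 1.37 for miR-5099 and 3.16 for miR-7687-3p.

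**Figure D2:**
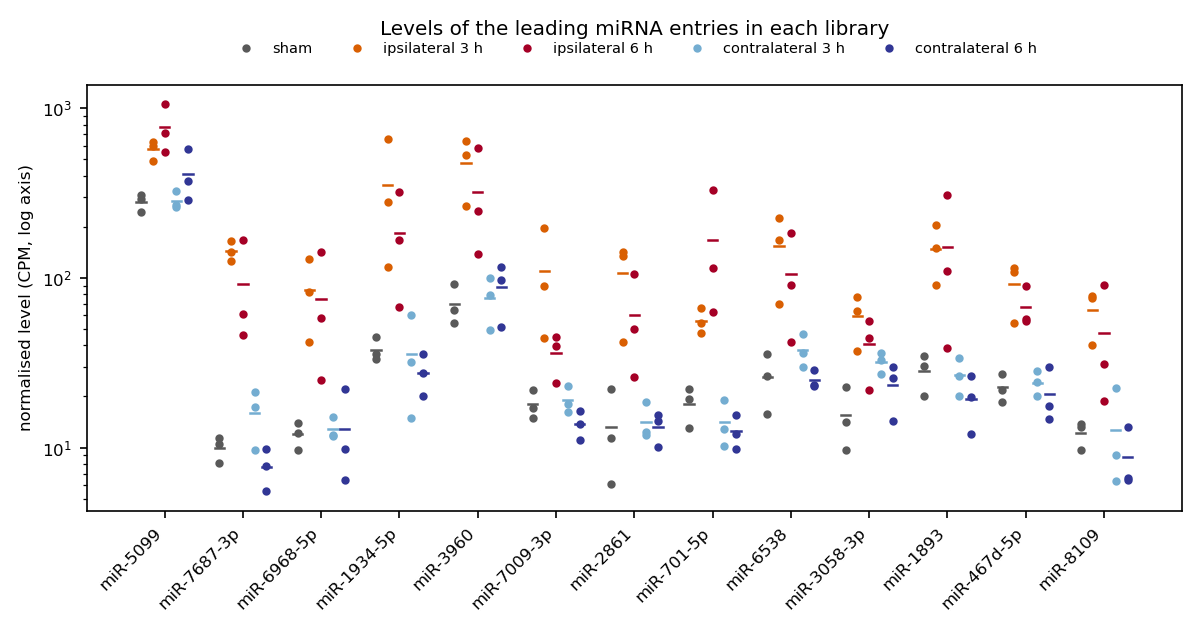
Level in CPM (log y axis) of the 12 leading higher entries and miR-8109 in each sham, ipsilateral and contralateral library at 3 and 6 h. Points are libraries and dashes are group means of 3. Except for miR-3058-3p, each ipsilateral point lies above the sham points of its entry.

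Taken singly, the 3 h libraries differed from sham in 0 entries at an adjusted p under 0.05 by edgeR (0% called). MiR-7009-3p came closest, with a log2 fold change of 2.61 ± 0.52 and an adjusted p of 0.0552. It passed with the replicate block (adjusted p 0.046), with DESeq2's size factors (0.0384) and with no filter on low counts (0.0331). There were 86 entries with an unadjusted p under 0.05, 65 of them higher, and DESeq2 called 18. Without 3 h replicate 2 edgeR called 3 entries, miR-7009-3p (log2 2.98, adjusted p 0.00803), miR-1934-5p and miR-7082-5p. MiR-7687-3p at 3 h had a log2 fold change of 3.84, miR-1934-5p 3.22 and miR-2861 3.01.

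The 6 h libraries also differed from sham in 0 entries by edgeR (0% called). The smallest adjusted p, 0.143, was shared by miR-5099 (log2 1.46) and miR-701-5p (log2 3.21). There were 54 entries with an unadjusted p under 0.05, 36 of them higher. DESeq2 called 4 entries, miR-5099, miR-701-5p, miR-7687-3p and miR-6968-5p. With the replicate block edgeR called 1, miR-5099 (adjusted p 0.0107).

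No entry passed the edgeR test between 6 h and 3 h (0% called, smallest adjusted p 0.998), DESeq2 called 0, and 49 entries had an unadjusted p under 0.05. MiR-7009-3p was lower at 6 h than at 3 h by the largest margin among the leading entries, with a log2 difference of -1.61 ± 0.50 and an unadjusted p of 0.0034 by edgeR. MiR-701-5p had a log2 difference of 1.59 ± 0.68 in the other direction. Both had an adjusted p of 0.998, so a change between these times was not shown at this depth with 3 libraries a group.

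The early ipsilateral libraries were next set against the 6 contralateral libraries of the same times, which share the surgery and the recovery but not the occluded artery. This comparison uses the same ipsilateral libraries as the one with sham, so the pair of comparisons does not count as separate evidence. Here 12 entries rose in ipsilateral cortex and 0 fell at an adjusted p under 0.05 (edgeR, 0.816% of tested entries called higher and 0% lower). DESeq2 called 19, including all 12. They were 11 of the 12 entries above, without miR-3058-3p (log2 0.84 ± 0.35, adjusted p 0.678), and miR-8109.

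MiR-7687-3p ran from 5.52 to 21.3 CPM in the contralateral libraries with a median of 9.78, below its lowest ipsilateral value of 45.8 CPM, and the log2 difference was 3.36 ± 0.62 (adjusted p 0.00498 by edgeR). MiR-1934-5p, with 14.9 to 60.6 CPM contralaterally and a median of 29.6, differed by 3.01 ± 0.53. MiR-701-5p, with 9.87 to 19.1 CPM and a median of 12.4, differed by 2.88 ± 0.53. MiR-6968-5p, with 6.44 to 22.1 CPM, differed by 2.62 ± 0.49, and miR-7009-3p, with 11.0 to 22.9 CPM, by 1.95 ± 0.37. The adjusted p was 0.00498 for each of these. None of the 5 overlapped between hemispheres, and all 5 kept an adjusted p of at most 0.0327 when any 1 of the 12 libraries was left out.

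These 5 lost the call in the replicate block fit without both high-miR-182-5p libraries, with log2 differences of 1.91 for miR-7009-3p to 3.17 for miR-7687-3p and adjusted p of 0.0521 to 0.121. The only call of that fit was miR-5099 (adjusted p 0.00995).

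The other 7 calls depended on single libraries. MiR-1893 (log2 2.72 ± 0.55), miR-2861 (2.53 ± 0.52) and miR-3960 (2.26 ± 0.47) each lost the call without contralateral 3 h replicate 2, contralateral 6 h replicate 2 or ipsilateral 6 h replicate 3 (adjusted p 0.0556 to 0.08). MiR-8109, from opposite the Neto2 exon, was at 13.8, 9.61 and 13.1 CPM in sham, 77.8, 40.2 and 75.6 CPM at 3 h, and 18.9, 31.0 and 91.3 CPM at 6 h. It reached 22.5 CPM contralaterally, so the hemispheres overlapped, and its log2 difference was 2.36 ± 0.53 (adjusted p 0.0248). It lost the call in 7 of the 12 leave-outs. MiR-6538 (2.05 ± 0.49) lost it in 10, miR-467d-5p (1.82 ± 0.42) in 9 and miR-5099 (0.96 ± 0.22, adjusted p 0.0321) in 8, with an adjusted p of at most 0.258 in any of them. For miR-5099 the hemispheres overlapped, since contralateral 6 h replicate 1 was at 575 CPM.

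With the replicate block there were also 12 calls, 10 of them shared. MiR-6538 (adjusted p 0.135) and miR-467d-5p (0.0522) were not among them, and miR-7082-5p and miR-3473b were. Scaled by library totals alone, or with TMM factors from entries of at least 100 CPM, 5 entries were called. Without the 2 libraries of high miR-182-5p 6 were called, namely miR-1934-5p, miR-7009-3p, miR-7687-3p, miR-701-5p, miR-5099 and miR-6968-5p. All 12 entries called in the main fit were higher ipsilaterally on all 3 days, by log2 0.78 to 3.55. Of them 9 did not overlap, beside 16 of all tested entries (1.09%), and for these 9 the direction on each day follows from that. They were picked by their calls in this same comparison, so these counts only describe them.

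The contralateral libraries at 3 and 6 h were then set against sham. No entry was called (edgeR, 0%), DESeq2 called 0, and 25 entries had an unadjusted p under 0.05. The smallest adjusted p was 0.0591, for miR-141-3p. Without sham replicate 1 there were 5 calls and without sham replicate 3 there were 4. All were lower entries of the miR-183 and miR-200 clusters, with log2 fold changes of -6.00 to -3.83. Sham replicate 2, with its very high miR-182-5p, stayed in both of these fits. The leading entries had contralateral log2 fold changes of -0.46 to 0.81 over sham. In CPM of the total their sum was 446 to 930 in contralateral cortex, which overlaps the 430 to 684 of sham.

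The later ipsilateral libraries were set against the early ones. Between the late and the early ipsilateral libraries edgeR called 131 entries higher (8.91%) and 4 lower (0.272%), and with the replicate block 147 and 13. Of the 12 entries called between hemispheres early, 10 were among the 131. At 12 h the libraries differed widely: all 10 were above their highest early library in replicate 3, but 4 in replicate 1 and 1, miR-701-5p, in replicate 2. At 24 h all 10 were above it in replicates 1 and 2, and 9 in replicate 3. These 10 were picked by their calls between the same late and early libraries, so the counts only describe them. MiR-701-5p rose most of them, by log2 5.00 (adjusted p 2.17e-06), to 651, 334 and 3659 CPM at 12 h and 12613, 4285 and 1883 CPM at 24 h. MiR-7687-3p rose by 2.89 (adjusted p 0.00091), to 293, 62.6 and 1233 CPM at 12 h and 2985, 691 and 431 CPM at 24 h. MiR-3960 rose by 2.13, to 655, 221 and 2176 CPM at 12 h and 5799, 2043 and 877 CPM at 24 h. MiR-8109 was at 13.5 CPM in 12 h replicate 2, within its sham range.

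The exceptions were miR-5099 and miR-7009-3p. MiR-5099 was at 524, 419 and 677 CPM at 12 h and 1195, 691 and 502 CPM at 24 h, and 4 of these 6 values lay within the early range of 489 to 1059 CPM. The log2 difference was -0.02 (adjusted p 0.981). MiR-7009-3p was at 55.5, 33.1 and 173 CPM at 12 h and 148, 74.3 and 144 CPM at 24 h, with a log2 difference of 0.71 (adjusted p 0.269). Without 12 h replicate 3 the calls between late and early numbered 73. The 4 entries that fell from early to late were miR-6933-3p (log2 -1.29), miR-6901-3p (-0.94), miR-3087-3p (-0.91) and miR-7042-3p (-0.89).

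**Figure D3:**
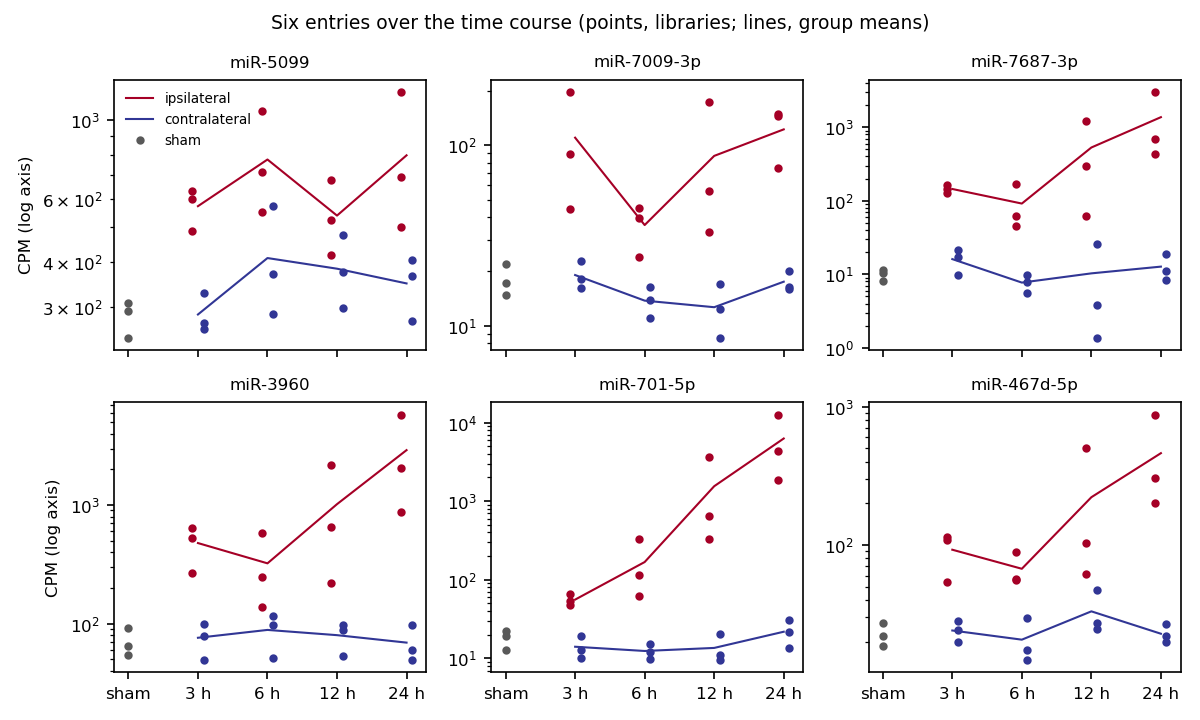
Level in CPM (log y axis) of 6 entries in sham and at 3, 6, 12 and 24 h. Points are libraries, and the red and blue lines join group means of 3 for ipsilateral and contralateral cortex. Ipsilateral miR-701-5p was at 47.6 to 66.3 CPM at 3 h and at 1883 to 12613 CPM at 24 h. Ipsilateral miR-5099 was at 489 to 633 CPM at 3 h and at 502 to 1195 CPM at 24 h.

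On the lower side 2 of the 12 leading entries, miR-141-3p and miR-429-3p, belong to the miR-200 clusters. Members of these clusters were high in the same libraries as miR-182-5p of the miR-183 cluster. These clusters are typical of epithelia and sensory cells, and their members fall into few seed groups, as these sequences show.
miR-141-3p: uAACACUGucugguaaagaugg
miR-200a-3p: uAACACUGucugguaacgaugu
miR-429-3p: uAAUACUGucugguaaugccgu
miR-200b-3p: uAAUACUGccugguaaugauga
miR-182-5p: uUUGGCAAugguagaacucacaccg
miR-183-5p: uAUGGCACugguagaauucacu
MiR-182-5p was at 143, 22414 and 87.9 CPM in sham, 326, 166 and 62.6 CPM at 3 h, and 214, 111 and 20224 CPM at 6 h. The high value in each arm belongs to the libraries named above, and the other 7 overlapped with the 73.5 to 329 CPM of early contralateral cortex. Not every member of the clusters stood out there. MiR-141-5p had 11, 19 and 15 counts in sham and 25 in 6 h replicate 3. MiR-200c-5p had 6, 15 and 10 counts in sham and 10 in 6 h replicate 3. The members named next were high in the same libraries as miR-182-5p. In sham replicate 2, miR-429-3p was at 2884, miR-183-5p at 2093, miR-141-3p at 1074, miR-200b-3p at 670 and miR-200a-3p at 586 CPM. In 6 h replicate 3 they were at 1649, 1600, 405, 606 and 873 CPM. Elsewhere among the 9 libraries miR-429-3p ran from 44.3 to 82.8 CPM and miR-141-3p from 2.16 to 18.2 CPM.

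With 1 of 3 sham libraries and 1 of 6 early libraries at these levels, the log2 fold changes were -3.30 ± 0.95 for miR-141-3p (adjusted p 0.234 by edgeR), -2.46 ± 0.85 for miR-429-3p (0.506) and -2.74 ± 1.24 for miR-182-5p (0.853). Without both libraries they were -0.50, -0.33 and 0.58. Without 6 h replicate 3 alone miR-182-5p, miR-141-3p, miR-200a-3p, miR-429-3p and miR-200b-3p were called lower, at -5.44, -5.29, -4.79, -4.17 and -2.94. Without sham replicate 2 alone the values turned to 3.28 for miR-182-5p, 1.48 for miR-141-3p and 1.39 for miR-429-3p. The direction of these entries thus depended on which library was kept.

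**Figure D4:**
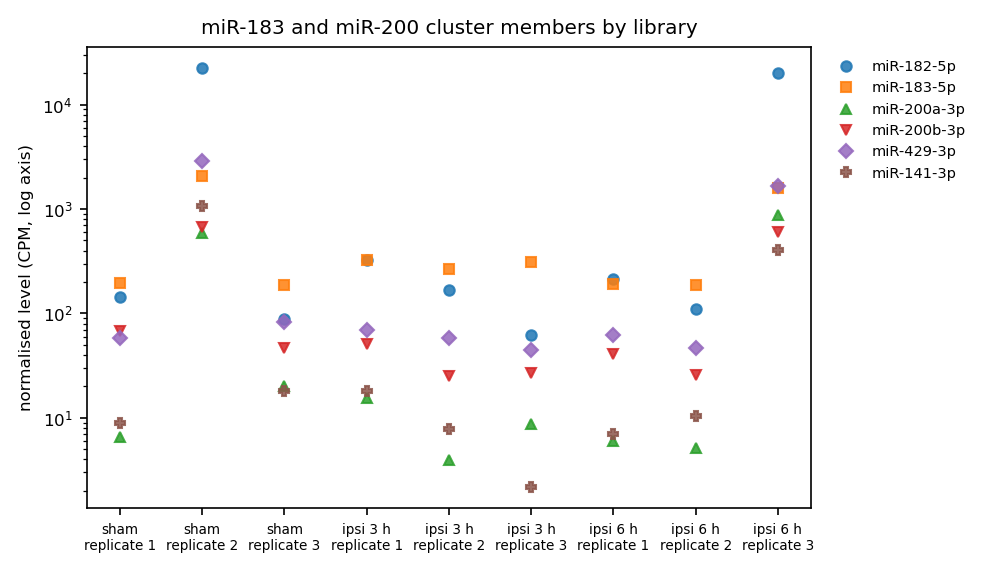
Level in CPM (log y axis) of 6 members of the miR-183 and miR-200 clusters in each of the 9 libraries (x axis). All 6 are highest in sham replicate 2 and ipsilateral 6 h replicate 3, where miR-182-5p reached 22414 and 20224 CPM.

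Of the leading lower entries outside these clusters, 2 had the smallest p.
miR-7228-5p: uGGCGACCugaacagaugu
miR-144-3p: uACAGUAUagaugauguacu
MiR-7228-5p (chr5:134572076-134572114, plus strand, no other gene) was at 89.2, 126 and 167 CPM in sham, 62.3, 53.6 and 56.1 CPM at 3 h, and 24.9, 64.6 and 27.4 CPM at 6 h. All early libraries were below all sham libraries, and the log2 fold change was -1.42 ± 0.38 (adjusted p 0.189 by edgeR and 0.0614 with the replicate block). The early contralateral libraries ran from 28.7 to 118 CPM and overlapped both groups. Their log2 fold change relative to sham was -0.88, and the difference between hemispheres was -0.54 and was not called. MiR-144-3p, a miRNA of the erythroid lineage (chr11:78073005-78073070, plus strand), was at 19.5, 34.9 and 28.3 CPM in sham, 12.1, 18.9 and 19.4 CPM at 3 h, and 9.96, 15.5 and 11.6 CPM at 6 h. The groups were separated only narrowly, by 19.5 against 19.4 CPM, and the log2 fold change was -0.93 ± 0.29 (adjusted p 0.344).

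The other 8 leading lower entries had log2 fold changes of -1.08 to -0.58 and adjusted p from 0.445 to 0.832. MiR-3968 was the most abundant of them, at 1546, 744 and 2229 CPM in sham, 1034, 823 and 907 CPM at 3 h and 338, 627 and 677 CPM at 6 h (log2 -1.08 ± 0.43), and its groups overlapped through sham replicate 2. Among the 12 leading lower entries 4 did not overlap with sham (miR-7228-5p, miR-144-3p, miR-7090-3p and miR-3101-3p), beside 10 of all tested entries (0.68%). These entries too were picked for small p, so the count only describes them. No leading lower entry was called against contralateral cortex.

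MiRNA families, genomic clusters and cell type markers were described as 26 lists, of whose 293 members 224 were tested. No member of any list was called against sham (0%), and the values below are descriptions. The median log2 fold change over all tested entries was 0.02, with 778 above and 692 below 0. Scaling by library totals moved that median by 0.12, which is larger than many of the list medians, so lists within about that distance of 0 are given without a direction. In RNA from whole tissue, fewer cells of a type and less RNA per cell cannot be told apart.

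The list that differed most was that of entries that were high at 12 and 24 h. It was taken from earlier results of these data and is no independent evidence. It also holds many of the leading higher entries described above, among them miR-7687-3p, miR-701-5p and miR-3960. All 19 members were above 0 in the pooled early comparison, 13 with an unadjusted p under 0.05, beside 81 of all 1470 tested entries. The median was 2.17 (range 0.06 to 3.51), or 1.57 without the 2 libraries of high miR-182-5p. Against contralateral cortex 9 of the 19 were called, beside 12 of all tested entries (0.816%). Their summed level was 263 to 496 CPM in sham, 1061 to 4195 at 3 h and 712 to 2879 at 6 h, beside 221 to 662 in early contralateral cortex.

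Neuron-enriched miRNAs, the defining markers of the labelled tissue, were abundant in every library. Their summed level was 109570 to 159654 CPM in sham, 101656 to 126360 at 3 h and 96215 to 127948 at 6 h, which overlap. Of 15 members 12 were below 0 and 3 above, with a median of -0.19, or 0.01 without the 2 libraries. MiR-124-3p, which promotes neuronal differentiation, was at 3429, 6073 and 5487 CPM in sham, 2321, 5949 and 5310 CPM at 3 h and 3193, 5714 and 3523 CPM at 6 h (log2 -0.21 ± 0.35). MiR-128-3p, another neuronal miRNA, had -0.39 ± 0.31. The 4 activity-regulated members of miR-132 and miR-212 had a median of -0.10, or -0.05 without the 2 libraries, and miR-132-3p itself -0.04 ± 0.23. The 4 oligodendrocyte markers had a median of -0.19, or -0.04 without the 2 libraries.

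The vascular markers were below 0 in 5 of 5 members, with a median of -0.43 and -0.42 without the 2 libraries. Their sums overlapped, at 15734 to 33346 CPM in sham, 14499 to 25985 at 3 h and 15468 to 18502 at 6 h. MiR-126a-3p of endothelial cells had a log2 fold change of -0.30 ± 0.28 and miR-143-3p of smooth muscle -0.34 ± 0.31. The 3 erythrocyte markers had a median of -0.41, and their sums were 188 to 241 CPM in sham, 146 to 183 at 3 h and 147 to 191 at 6 h. They consist of miR-144-3p, described above, miR-451a (log2 -0.41 ± 0.33) and miR-144-5p, which was near 0 (log2 -0.09). The part of blood cells in the level of other entries was not tested.

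The 5 leukocyte and microglia markers had a median of -0.12, or -0.32 without the 2 libraries, with sums of 1450 to 2451 CPM in sham, 1366 to 1554 at 3 h and 892 to 2411 at 6 h. MiR-223-3p, of neutrophils and other myeloid cells, was at 13.0, 9.61 and 11.1 CPM in sham, 8.72, 14.2 and 11.9 CPM at 3 h and 16.9, 12.1 and 7.47 CPM at 6 h. These levels overlapped fully (log2 0.06 ± 0.35). The 4 choroid plexus markers were all above 0, with a median of 0.24, or 0.40 without the 2 libraries, and sums of 2234 to 3343 CPM in sham, 2993 to 9290 at 3 h and 2924 to 5722 at 6 h, while early contralateral cortex also reached 7564 CPM. MiR-204-5p makes up most of that sum (log2 0.52 ± 0.29, unadjusted p 0.0883 by edgeR).

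No member of the pathways that ischemia is known to engage passed the test. MiR-210-3p, the best known miRNA induced by hypoxia, was at 62.4, 63.8 and 44.4 CPM in sham, 25.5, 60.0 and 45.3 CPM at 3 h and 51.8, 47.3 and 67.2 CPM at 6 h (log2 -0.21 ± 0.30), and miR-210-5p had 0.23 ± 0.39. Of the 7 tested injury and inflammation miRNAs, miR-146b-5p, a feedback inhibitor of innate immune signaling, had the smallest p. It was at 370, 540 and 521 CPM in sham, 444, 496 and 896 CPM at 3 h and 911, 733 and 1056 CPM at 6 h (log2 0.64 ± 0.34, unadjusted p 0.0696, adjusted p 0.988). At 6 h all 3 libraries were above sham, whereas at 3 h they overlapped. MiR-155-5p, induced in activated immune cells, had 0.57 ± 0.38, and miR-21a-5p, induced by many injuries, 0.07 ± 0.23. MiR-34a-5p of the p53 pathway had -0.03 ± 0.30.

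Among the families, the 3 members of miR-29 had values of -0.42 to -0.35 and the 6 of miR-15/16 a median of -0.28, or -0.12 without the 2 libraries. The let-7 guide strands had a median of 0.04 over 10 members and the miR-181 family 0.05 over 4, or 0.11 and 0.13 without the 2 libraries. The Dlk1-Dio3 imprinted domain, which encodes many neuronal miRNAs, had 28 members above and 41 below 0 of 69, with a median of -0.05. Its only member with an unadjusted p under 0.05 was miR-341-5p, at 35.7, 14 and 22.2 CPM in sham, 61.0, 41.8 and 54.0 CPM at 3 h and 21.9, 61.1 and 149 CPM at 6 h (log2 1.40 ± 0.64, adjusted p 0.853). Of the Sfmbt2 cluster 10 of 49 entries were tested, and miR-467d-5p (1.80) and miR-466g (-0.73) were its ends. MiR-671-5p, which directs cleavage of the circular RNA Cdr1as, had 0.70 ± 0.44.

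**Figure D5:**
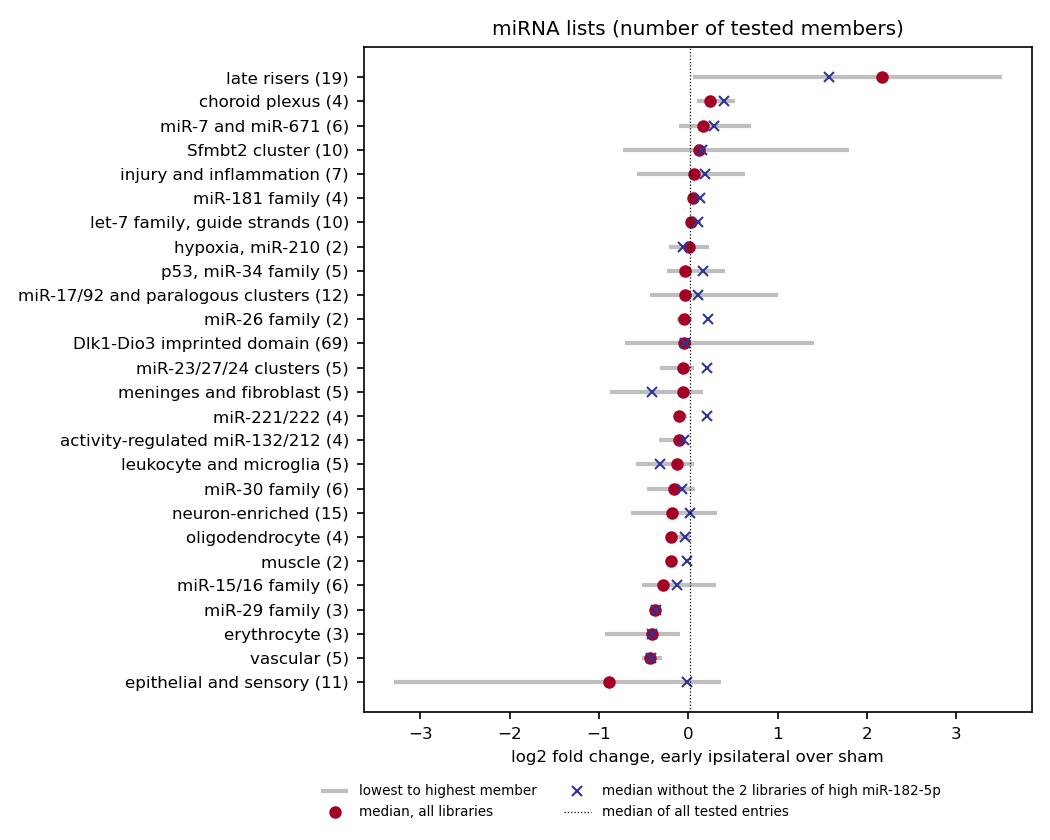
Median log2 fold change of early ipsilateral cortex over sham (x axis) for 26 lists of miRNAs, with all libraries (circles) and without the 2 libraries of high miR-182-5p (crosses). Grey bars run from the lowest to the highest member, and the dotted line is the median of all tested entries, 0.02. The late risers, chosen from these data, stand at 2.17 and the epithelial and sensory list at -0.89, or -0.01 without the 2 libraries.

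None of the most abundant miRNAs of the cortex passed the test. The share of the counts in the 10 entries of highest mean level was 55.9% ± 1.95 in early ipsilateral cortex (SD, n = 6), 56.9% ± 1.40 in early contralateral cortex (n = 6) and 56.2% ± 1.22 for sham (n = 3). MiR-181a-5p was at 102672, 106148 and 74616 CPM in sham, 74228, 103065 and 82470 CPM at 3 h and 121753, 100603 and 128817 CPM at 6 h (log2 0.09 ± 0.19). The other 9 had log2 fold changes from -0.39 for miR-128-3p to 0.03 for let-7f-5p (edgeR adjusted p 0.9996 for each). All 12 leading higher entries, by contrast, stayed at or under 1059 CPM in every sham and early ipsilateral library.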

How the data were processed

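Small RNA libraries from cortex (Trizol RNA, TruSeq small RNA protocol, MiSeq, per the labels' protocols) were deposited by the authors as 1 table of raw counts of 1842 miRNA entries in 27 libraries, all of them used. The submitters' processing notes list Novoalign and edgeR. The sources used here name no build, annotation release or rule for reads that match several entries, so members of near-identical families, such as let-7, are uncertain singly.

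From the counts, edgeR 4.0.16 (R 4.3.3) fitted 1 mean per group to all 27 libraries (TMM, filterByExpr, robust quasi-likelihood test, 18 residual degrees of freedom). The filter kept 1470 entries with 99.9% of the counts and removed 372. An adjusted p (Benjamini-Hochberg over all tested entries) under 0.05 was a call. The times 3 and 6 h had equal weight. Entries named are up to 12 calls per direction against sham by size, filled by smallest p where there were fewer, with a mean of at least 10 CPM, up to 6 calls per direction in other comparisons, the 10 most abundant entries and list members. The opposite arms, miR-7082-5p, miR-3473b, miR-6933-3p and miR-7042-3p fall outside this rule and were chosen after their values were seen. The comparison, members and lists were chosen with earlier results of these data known.

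The series' design text ties replicate numbers to days of surgery. The mean correlation of deviations from group means was 0.19 for 9 same-numbered pairs and -0.10 for 18 others. Deviations within a group cancel out, so the second value follows largely from the first and is no separate evidence. Replicates differed beyond sampling noise (chi-square per degree of freedom 21.3 to 101). Wilson intervals at 95% cover counting error only, since PCR reads carry no molecular identifiers. Alternatives were the replicate block, other scalings, no filter, DESeq2 1.42.0, fits to fewer libraries and leave-outs. The tests were tried on simulated counts.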

Additional observations from a re-analysis of the deposited data

Results flagged for a closer look

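Among the 6 early ipsilateral libraries, ipsilateral 6 h replicate 3 stood far from the others in 4 of the 36 values examined, by a gap to the nearest library that exceeded Dixon's 95% critical value. It held miR-182-5p at 20224 CPM, where the next library had 326, miR-429-3p at 1649 CPM (next 69.1), miR-141-3p at 405 CPM (next 18.1) and miR-701-5p at 328 CPM (next 114). Chance alone marks about 1 in 20 independent, normally distributed values. That rate does not apply here, since miR-182-5p, miR-429-3p and miR-141-3p were high together. The high miR-182-5p of this library was also known before the values were examined.

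The early change relative to sham differed between the hemispheres for 12 entries, by the edgeR contrast of early ipsilateral against early contralateral cortex in which sham cancels. The log2 differences were 3.36 for miR-7687-3p, 3.01 for miR-1934-5p, 2.88 for miR-701-5p, 2.72 for miR-1893, 2.62 for miR-6968-5p and 2.53 for miR-2861. They were 2.36 for miR-8109, 2.26 for miR-3960, 2.05 for miR-6538, 1.95 for miR-7009-3p, 1.82 for miR-467d-5p and 0.96 for miR-5099.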

How the results depend on the processing

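Calls of early ipsilateral cortex against sham numbered 0 with other scalings and no filter, 1 with the replicate block, 1 with the block and without the 2 libraries of high miR-182-5p, 1 from only the 9 libraries, 1 from these with 3 and 6 h as 1 group, 14 from these with the block (chosen after seeing the data), 16 with DESeq2, and 0 to 6 with 1 library left out. At 3 h they numbered 1 with the block, 1 with DESeq2's size factors in edgeR, 1 without a filter, 18 with DESeq2 and 0 to 3 with 1 library left out. At 6 h they numbered 1 with the block, 1 with the block and without the 2 libraries, and 4 with DESeq2. Against contralateral cortex they numbered 5 with library totals, 5 with TMM from abundant entries, 19 with DESeq2, 6 without the 2 libraries, 1 with the block as well (miR-5099), and 5 to 13 with 1 library left out. Contralateral cortex against sham gave 0 to 5 calls with 1 library left out, all of them lower entries of the miR-183 and miR-200 clusters. Late against early ipsilateral cortex gave 73 to 153. With the replicate block, calls against contralateral cortex stayed at 12, of which 10 were shared (miR-6538 and miR-467d-5p lost, miR-7082-5p and miR-3473b gained), and late against early calls went from 131 higher and 4 lower to 147 and 13. Of 940 alternatives of 47 entry results, 799 kept direction and side of the threshold, 29 gained a call, 77 lost one and 35 turned direction.

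All turned values belong to the miR-183 and miR-200 clusters or to abundant entries near 0. For miR-182-5p the log2 fold change was 0.58 without the 2 libraries and 0.49 with the block as well, and -5.44 to 3.28 with 1 library left out. With 1 left out, miR-141-3p ran from -5.29 to 1.48 and miR-429-3p from -4.17 to 1.39. MiR-127-3p was 0.0019 with the replicate block, 0.085 with totals, 0.0061 without a filter, 0.43 without the 2 libraries, 0.21 with the block as well, and 0.0204, 0.0206 and 0.036 in the 3 fits to 9 libraries (the last with the block). MiR-26a-5p was 0.26 without the 2 libraries and 0.062 with the block as well, miR-9-5p 0.037 without the 2, and miR-27b-3p 0.019 with totals, 0.21 without the 2 and 0.036 with the block as well. With 1 library left out, miR-127-3p ran from -0.29 to 0.35, miR-26a-5p from -0.38 to 0.14, let-7f-5p from -0.10 to 0.15, miR-181a-5p from -0.051 to 0.19, miR-434-3p from -0.51 to 0.11, miR-30a-5p from -0.27 to 0.0016 and miR-27b-3p from -0.21 to 0.14. The cause was not tested. Scaling by totals moved the median log2 value of all entries by 0.12 against sham, 0.22 at 3 h, 0.13 against contralateral cortex and -0.19 between 6 and 3 h. With a median count per entry of 11 to 21 in a library, low entries were imprecise. Differences from sham of several standard errors stayed uncalled after adjustment.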
